A study of Mus musculus with 12 samples.

Results

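FAN1KO kidneys were compared with wild-type kidneys in mice that had all received cisplatin. The comparison holds 6 of the 12 whole-kidney RNA sequencing libraries of the study, 3 mice per genotype, and 14972 of the 27179 genes in the table. A gene entered the comparison if 3 or more of the 12 libraries had it at 1 TPM or above (TPM is a transcript's share of the library, corrected for gene length). The FAN1KO genotype is labelled {Gamma}GT1-Cre;Fan1-/-, in which Cre under the Ggt1 promoter deletes Fan1 in proximal tubule cells, and whole-kidney RNA therefore also holds cells that keep the gene. All mice were aged 8 to 12 weeks on a background labelled Mixed. The paper's methods differ from this label, since they describe backcrossing of FAN1KO mice to a single strain. The cisplatin groups received 2 mg/kg intraperitoneally each week for 5 weeks, and the other 6 mice, 3 wild-type and 3 FAN1KO, received saline over the same period. The question addressed here is which nephron segments and which processes, apart from oxidative phosphorylation and fatty acid oxidation, differed between the genotypes.

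FAN1 is a nuclease that takes part in the repair of DNA interstrand crosslinks, which are among the lesions that cisplatin leaves in DNA. Its loss leads to karyomegalic interstitial nephritis (KIN), a kidney disease with enlarged tubular nuclei. The nephron is a chain of segments with distinct transporters. The proximal tubule takes back most of the filtered glucose, phosphate, amino acids and protein, makes glucose from lactate and amino acids, and carries cisplatin and other organic ions out of the blood. The loop of Henle, distal convoluted tubule, connecting tubule and collecting duct then adjust salt, divalent ions, acid and water.

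After cisplatin, Fan1 itself was at 2.33, 3.57 and 3.32 TPM in wild-type replicates 1, 2 and 3 and at 2.72, 3.51 and 1.55 TPM in the FAN1KO replicates. With saline the values were 3.80, 3.35 and 1.98 TPM against 1.17, 1.54 and 2.28 TPM. The genotypes overlapped under both treatments (two-sided exact permutation test, p = 0.6 for cisplatin and 0.2 for saline, where 3 mice against 3 cannot go below 0.1), so whole-kidney Fan1 RNA did not check the labels. The genotypes differed in library make-up. Mitochondrially encoded genes held 18.3% to 21.2% of the TPM in wild-type and 10.2% to 16.7% in FAN1KO cisplatin libraries, TPM being shares of a fixed total, and over all genes the log2 fold change had a median of 0.24. One library of each group stood apart from the other 2 by 4 Y-linked genes (Uty, Kdm5d, Eif2s3y and Ddx3y), whose mean log2(TPM + 1) was 3.72 in wild-type cisplatin replicate 1 and 3.93 in FAN1KO cisplatin replicate 3, and at most 0.104 in the other cisplatin libraries. These 4 libraries are called Y-high below, and the Y-linked covariate is a fit with the mean of the 4 genes as a term. In bulk tissue fewer cells of a type and less RNA per cell cannot be told apart.

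At an adjusted p under 0.05 in limma on log2(TPM + 1), 654 genes were lower (4.37% of the genes tested) and 2931 were higher (19.6%) in FAN1KO cisplatin kidneys. When each library was divided by its median ratio to the geometric mean of all libraries (median-ratio scaling), the median of all genes was -0.01, with 1155 genes lower (7.71%) and 1388 higher (9.27%). Higher genes thus made up 81.8% of the calls on TPM as deposited and 54.6% after scaling. Calls over all genes also moved with the libraries used. Without FAN1KO cisplatin replicate 1 there were 370 lower and 1169 higher genes, and without wild-type cisplatin replicate 1 there were 1442 higher genes. Without the 4 Y-high libraries, an alternative chosen after seeing the data, 7.76% of genes were lower and 28.9% higher, and with the Y-linked covariate 8.6% and 40.3%. Where one of these settings moved the count of a list with 3 or more calls in 1 direction by 1.5 times or more, its count is given beside the list. A gene that reached 1 TPM in fewer than 3 libraries of the other groups passed the filter only with the FAN1KO cisplatin kidneys, and one that reached it in none of them had to differ. Of the 2931 higher genes 257 passed only in this way. Genes of this kind named below include Ccne1, Spaca7, Sprr2f, Sprr2g, Ube2t, Mmp7 and Ccl20, which reached 1 TPM in no library of another group, and Krt20, Hk2, Aurkb, Mki67, Cxcl2, Lif, Nlrc5, Ripk3 and Fos. Their values are a description. Numbers in parentheses after a symbol are NCBI Gene numbers at its first mention or log2 fold changes. Values of single genes are TPM in the order of replicates 1, 2 and 3, wild-type before FAN1KO, under cisplatin. Fold changes are log2 differences of TPM + 1 with their SE, a scale that understates changes of low genes. The p-values rest on 1 spread per gene pooled within the 4 groups, saline mice included, which can differ from the spread between the cisplatin mice. With the 6 cisplatin libraries alone 454 genes were lower and 1721 higher. Same-numbered libraries of the 2 genotypes are different mice. In the saline groups the calls were 64 lower (0.427%) and 51 higher (0.341%). Over all lists the members called there were Mcm6 of DNA replication and Agmat of amino acid breakdown, both described below, and 4 genes that were not called under cisplatin, namely Hspa8 (1.04 under saline), Mccc1 (0.92), Sardh (0.97) and Sqle (-0.97).

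Genes of the proximal tubule were lower in FAN1KO kidneys. Of 18 markers of this segment, 11 fell and none rose, 18 of 18 had a fold change below 0 (27.4% of all genes), and the median was -0.89. After scaling, 12 fell. The summed TPM of the list was 22167 to 23192 in wild-type and 10129 to 14031 in FAN1KO kidneys. Lrp2 (14725), which encodes megalin, the endocytic receptor for filtered protein, was at 217, 289 and 211 TPM in wild-type and 67.6, 78.3 and 122 TPM in FAN1KO kidneys. It fell (log2 fold change -1.44 ± 0.23, adjusted p = 0.00271), and the highest FAN1KO kidney was below the lowest wild-type kidney. Slc34a1 (20505), the phosphate transporter NaPi-IIa, was at 2776, 2087 and 2476 TPM in wild-type and 837, 954 and 1590.0 TPM in FAN1KO kidneys. It fell as well (log2 fold change -1.17 ± 0.23, adjusted p = 0.00669), again without overlap of the genotypes. Ass1, argininosuccinate synthase of arginine synthesis, was at 642, 241 and 297 TPM in wild-type and 81.7, 109 and 161 TPM in FAN1KO kidneys and had the largest fall of the list (log2 fold change -1.66 ± 0.43, adjusted p = 0.0206), although wild-type replicate 1 was well above the other 2 wild-type kidneys. The other falls included Miox (-1.48), the inositol oxygenase, Fbp1 (-1.29), Keg1 (-0.98), Cubn (-0.89), which encodes cubilin, the partner of megalin, Pdzk1 (-0.73) and the transcription factor Hnf4a (-0.52). Amn and Dab2, which act with cubilin and megalin in endocytosis, had fold changes of -0.35 and -0.24 and were not called. The fall depended on the libraries in its extent: 4 markers were called without FAN1KO replicate 1, 5 without FAN1KO replicate 2, 5 without wild-type replicate 1, 6 and 7 without wild-type replicates 2 and 3, and 13 without FAN1KO replicate 3.

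**Figure D1:**
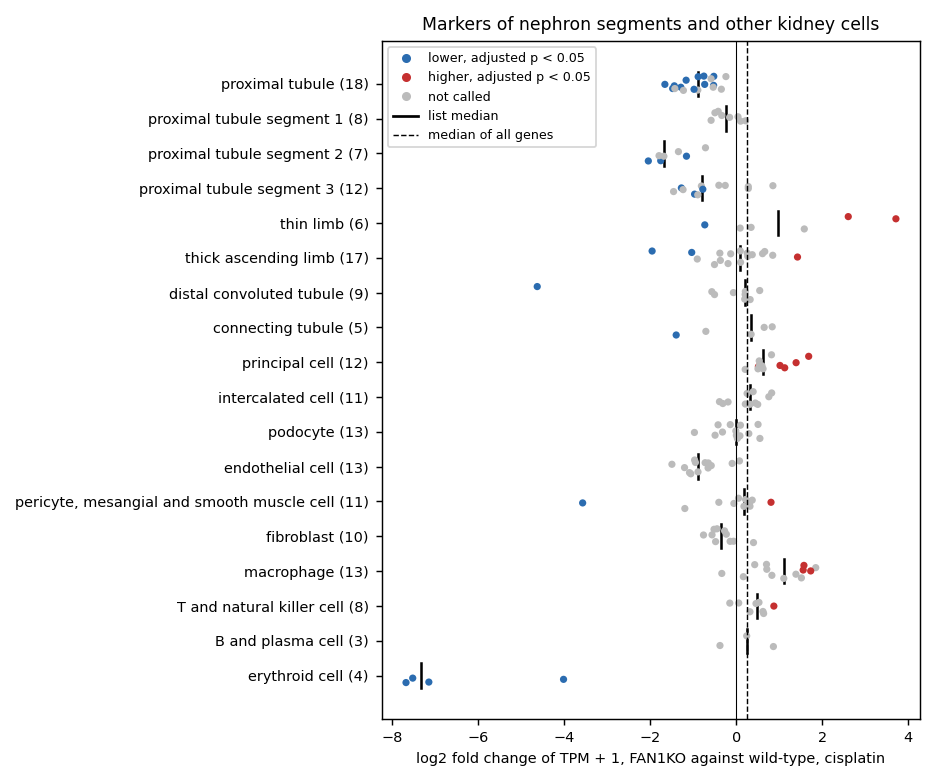
Each point is 1 marker gene, placed by its log2 fold change of TPM + 1 (horizontal axis) between FAN1KO and wild-type kidneys given cisplatin, in rows by nephron segment or kidney cell type with the number of genes tested. Blue and red points passed an adjusted p of 0.05, grey points did not, the black bar is the list's median and the dashed line the median of all genes (0.24). The 18 markers of the whole proximal tubule lie left of 0, principal cell markers and all but 1 macrophage marker right of it, and single markers such as Pvalb and Ren1 lie far from the rest of their rows.

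Within the proximal tubule the segments differed in how many markers passed the test, and the difference between segments was not itself tested. None of 8 markers of segment 1 was called, with a median of -0.25 and summed TPM of 1004 to 1106 in wild-type and 841 to 987 in FAN1KO kidneys. Slc5a2, the glucose transporter SGLT2 that defines this segment, was at 288, 213 and 194 TPM in wild-type and 175, 159 and 212 TPM in FAN1KO kidneys (log2 fold change -0.34 ± 0.19, adjusted p = 0.219). Slc2a2, the basolateral glucose transporter GLUT2, was at 109.8, 81.1 and 71.7 TPM in wild-type and 82.6, 69.7 and 80.1 TPM in FAN1KO kidneys (log2 fold change -0.15 ± 0.17, adjusted p = 0.536). For both genes the genotypes overlapped. In segment 2, 3 of 7 markers fell, all 7 had a fold change below 0, and the median was -1.68 (2 called after scaling). That median moved with single libraries, to -0.38 without wild-type replicate 1, -1.09 and -1.16 without FAN1KO replicates 1 and 2, and -2.56 without FAN1KO replicate 3, and its count to 2 without FAN1KO replicate 1 or 2 or wild-type replicate 1, 2 or 3, 6 without the 4 Y-high libraries and 6 with the Y-linked covariate. Slc22a8, the organic anion transporter OAT3, was at 407, 511 and 474 TPM in wild-type and 87.6, 133 and 216 TPM in FAN1KO kidneys and fell without overlap (log2 fold change -1.76 ± 0.32, adjusted p = 0.00458). Slc22a6, the organic anion transporter OAT1, was at 738, 319.8 and 278 TPM in wild-type and 59.3, 77.3 and 198 TPM in FAN1KO kidneys (log2 fold change -2.04 ± 0.65, adjusted p = 0.0446), a call that was lost after scaling (log2 fold change -2.33, adjusted p = 0.0674). In segment 3, 3 of 12 markers fell with a median of -0.79 (-0.36 without FAN1KO replicate 1 and -0.5 without replicate 2), namely Slc22a7 (-1.28), the organic anion transporter OAT2, Slc16a9 (-0.97) and the glutamate transporter Slc1a1 (-0.78). Slc22a7 was at 126, 139.7 and 170.3 TPM in wild-type and 47.5, 85.3 and 50.4 TPM in FAN1KO kidneys, without overlap. The 3 falls were also called after scaling, and their number was 1 without FAN1KO replicate 1, 2 without FAN1KO replicate 2 or wild-type replicate 1, 8 without the 4 Y-high libraries and 6 with the Y-linked covariate.

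Several segment 2 and 3 markers followed the libraries high in Y-linked genes. The cystine and aspartate transporter Slc7a13, a defining marker of segment 3, was at 795, 3.18 and 5.02 TPM in wild-type and 1.23, 1.67 and 162 TPM in FAN1KO kidneys (log2 fold change -1.46 ± 2.92, adjusted p = 0.744). The steroid hydroxylase Cyp7b1 was at 80.3, 4.02 and 1.79 TPM in wild-type and 3.91, 3.64 and 88.4 TPM in FAN1KO kidneys (log2 fold change 0.28 ± 1.97, adjusted p = 0.931). In both genotypes only the library high in Y-linked genes was high, and neither gene was called. In the wild-type libraries of both treatments, those high in Y-linked genes exceeded the others by 2.49 in the mean log2(TPM + 1) of the segment 2 list and by 0.967 in that of segment 3. The difference between the genotypes was also computed on each side of this split, of which one holds a single library per genotype. For segment 2 the difference was -1.92 between the 2 cisplatin libraries high in Y-linked genes and -1.29 between the other 2 and 2. For segment 3 the 2 differences were -0.16 and -0.751, and for the whole proximal tubule list -0.701 and -1.04. With the 4 libraries high in Y-linked genes left out of the fit, an alternative chosen after seeing the data, 0 of 8 segment 1, 6 of 7 segment 2 and 8 of 12 segment 3 markers were lower.

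Beyond the proximal tubule most segment markers were not called, and single genes moved far. Egf (13645), the growth factor made by the thick ascending limb and distal convoluted tubule, was at 211, 300.3 and 443 TPM in wild-type and 66.2, 67.8 and 104 TPM in FAN1KO kidneys. It fell without overlap (log2 fold change -1.96 ± 0.36, adjusted p = 0.00454). Cldn10 (-1.04), a claudin of the thick limb's sodium-permeable junctions, also fell, whereas Cldn19 rose, at 4.98, 14.9 and 13.8 TPM in wild-type and 31.2, 32.7 and 24 TPM in FAN1KO kidneys (log2 fold change 1.42 ± 0.45, adjusted p = 0.0447, and 1.15 after scaling, when it was not called). The defining transporter of the thick limb, Slc12a1 (NKCC2), was at 83, 251 and 252 TPM in wild-type and 139, 157 and 185 TPM in FAN1KO kidneys, and uromodulin (Umod) at 921, 2061 and 2149 TPM in wild-type and 1422, 1573 and 1224 TPM in FAN1KO kidneys. Neither was called (log2 fold change -0.13 ± 0.61, adjusted p = 0.896 for Slc12a1 and log2 fold change -0.19 ± 0.36, adjusted p = 0.727 for Umod), and the genotypes overlapped for both. In all, 2 of 17 thick limb markers fell and 1 rose, and after scaling 3 fell and none rose. In the thick limb list 1 fell and none rose without FAN1KO replicate 1 or 2 or wild-type replicate 1, and with the Y-linked covariate 3 fell and 4 rose. Without the 4 Y-high libraries 4 fell and 4 rose. Among 6 thin limb markers, Aqp1, the water channel that the proximal tubule also carries, fell (-0.73), and Bst1 and Fst (2.6), which encodes the activin inhibitor follistatin, rose. Without FAN1KO replicate 1 or 2 or wild-type replicate 1 or 3, none of the thin limb markers fell and 1 rose. Bst1, an ecto-enzyme that is also found on stromal and myeloid cells, was at 0.418, 4.31 and 1.72 TPM in wild-type and 42.4, 36 and 27.6 TPM in FAN1KO kidneys (log2 fold change 3.71 ± 0.8, adjusted p = 0.00937), while the urea transporter Slc14a2 that defines the thin descending limb was at 0, 1.58 and 0.112 TPM in wild-type and 0.371, 6.51 and 6.45 TPM in FAN1KO kidneys and was not called (log2 fold change 1.58 ± 1.13, adjusted p = 0.331).

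Pvalb and Calb1, calcium-binding proteins of the distal nephron, fell. Pvalb (19293), parvalbumin of the early distal convoluted tubule, was at 187, 303 and 358 TPM in wild-type and 4.55, 12.9 and 16.6 TPM in FAN1KO kidneys. It fell by 4.63 on the log2 scale (SE 0.63, adjusted p = 0.00119), more than any other segment marker. Slc12a3, the sodium chloride cotransporter NCC of the same segment, was at 198, 299 and 359 TPM in wild-type and 464, 609 and 234 TPM in FAN1KO kidneys and was not called (log2 fold change 0.55 ± 0.41, adjusted p = 0.361), and Pvalb was the only one of 9 markers of the segment that was. Calb1, calbindin-D28k of the connecting tubule, was at 298, 428 and 469.9 TPM in wild-type and 137, 217 and 109 TPM in FAN1KO kidneys. It fell without overlap (log2 fold change -1.4 ± 0.38, adjusted p = 0.0249), although leaving out single libraries raised the adjusted p to as much as 0.0892. S100g, calbindin-D9k, was at 752, 771 and 1349.6 TPM in wild-type and 912, 1899.7 and 927 TPM in FAN1KO kidneys and was not called (log2 fold change 0.35 ± 0.31, adjusted p = 0.437), and the calcium channel Trpv5 had a fold change of 0.84 (adjusted p = 0.0878). After scaling, the sodium-calcium exchanger Slc8a1 (-0.71 before scaling) was the second of the 5 connecting tubule markers that fell.

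Principal cell markers of the collecting duct were higher in part. Of 12 tested, 5 rose, against 19.6% of all genes, and none fell. In the upward direction 8 were without overlap (35.7% of all genes), and the median was 0.61. After scaling 3 rose, against 9.27% of all genes, with a median of 0.36. The number of rises was 1 without wild-type replicate 1, 2 without FAN1KO replicate 1, 2 or 3 and 3 without wild-type replicate 3. With the Y-linked covariate it was 10, against 40.3% of all genes. Aqp2 (11827), the vasopressin-regulated water channel, was at 208, 536 and 451 TPM in wild-type and 738, 956 and 1292 TPM in FAN1KO kidneys (log2 fold change 1.39 ± 0.45, adjusted p = 0.0455, and 1.1 with adjusted p = 0.073 after scaling). Fxyd4, a regulator of the sodium pump, was at 42.1, 68.4 and 70.6 TPM in wild-type and 181, 200.2 and 193 TPM in FAN1KO kidneys (log2 fold change 1.68 ± 0.34, adjusted p = 0.00691), and this rise held after scaling. Aqp3, the basolateral water channel, was at 97.2, 109 and 121 TPM in wild-type and 131, 155 and 186 TPM in FAN1KO kidneys (log2 fold change 0.51 ± 0.15, adjusted p = 0.0325, and 0.23 with adjusted p = 0.383 after scaling). The sodium channel subunit Scnn1b (1.02) and the transcription factor Elf5 (1.13) also rose, and Scnn1g (0.51) and Avpr2 (0.54), the vasopressin receptor, were not called. None of 11 intercalated cell markers was called, with a median of 0.32 (0.15 to 0.5 without single libraries). Atp6v1g3, a subunit of their proton pump, was at 57.9, 92.8 and 121 TPM in wild-type and 116, 155 and 103 TPM in FAN1KO kidneys, with overlap (log2 fold change 0.5 ± 0.32, adjusted p = 0.274). Slc26a4, the chloride-bicarbonate exchanger pendrin, had a fold change of 0.21 (adjusted p = 0.663), whose sign was negative after scaling.

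Ren1 (19701), the renin gene of the juxtaglomerular granular cells, was at 168, 711 and 481 TPM in wild-type and 46.9, 37.1 and 17.9 TPM in FAN1KO kidneys. It fell by 3.57 (SE 0.63, adjusted p = 0.00394), and the highest FAN1KO kidney was below the lowest wild-type kidney even though wild-type values varied widely. Under saline the values were 652, 409 and 129 TPM in wild-type and 157, 226 and 191 TPM in FAN1KO kidneys, and Ren1 was not called (fold change -0.78, adjusted p = 0.952). The 3 macula densa markers did not pass the filter, with a summed TPM of 0.483 to 1.15 in wild-type and 0.37 to 0.613 in FAN1KO kidneys. The other genes of pericytes, mesangial and smooth muscle cells were mostly not called: of 11, Ren1 fell and Cspg4 (NG2) rose (0.81). Pdgfrb, the growth factor receptor of these cells, was at 6.36, 27.7 and 19.5 TPM in wild-type and 22.5, 10.6 and 5.85 TPM in FAN1KO kidneys (log2 fold change -0.41 ± 0.67, adjusted p = 0.687), with overlap.

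**Figure D2:**
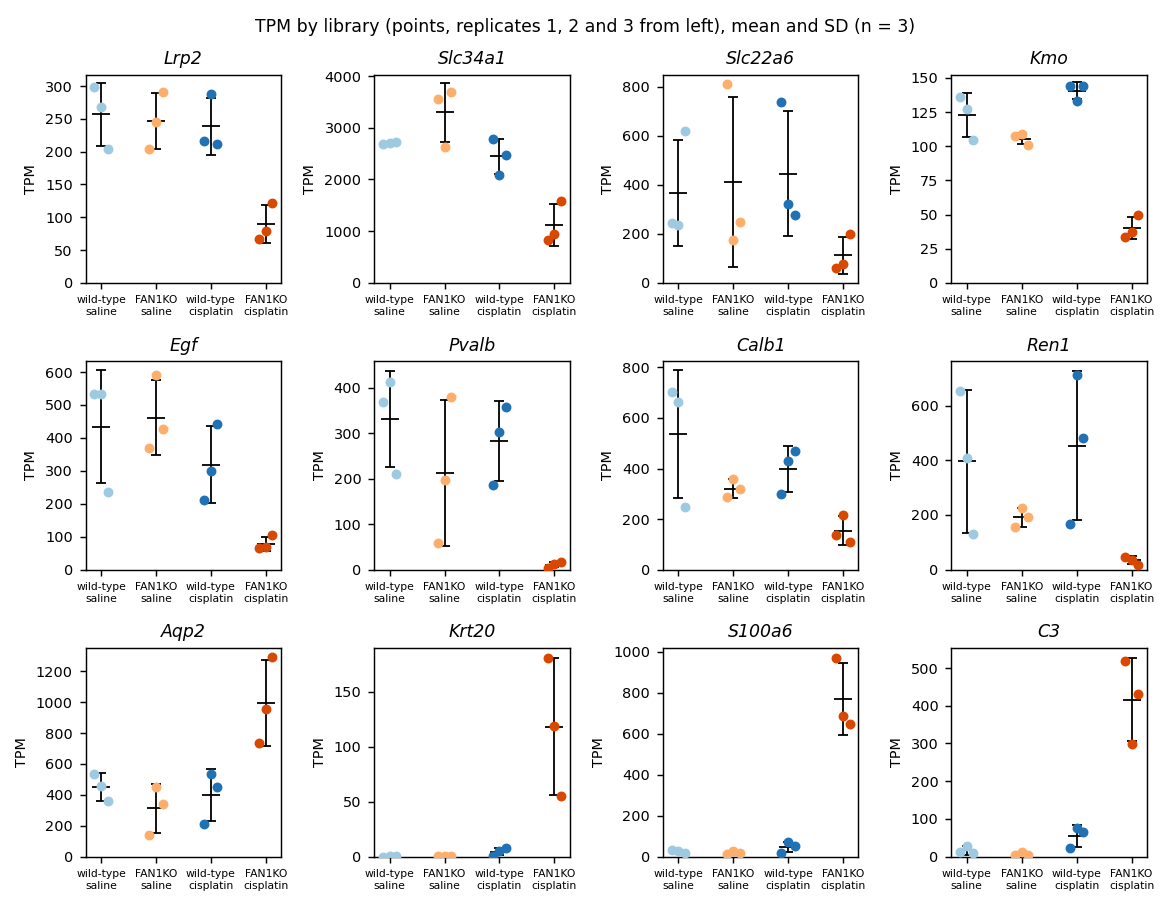
TPM (vertical axis, linear from 0) of 12 genes in the 12 libraries, by genotype and treatment. Points are replicates 1, 2 and 3 from left to right, with the mean and SD of each group (n = 3). Under cisplatin the 3 FAN1KO kidneys lie below the 3 wild-type kidneys for Lrp2, Slc34a1, Slc22a6, Kmo, Egf, Pvalb, Calb1 and Ren1 and above them for Aqp2, Krt20, S100a6 and C3.

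Podocyte, fibroblast and endothelial markers did not pass the test on TPM as deposited. Of 13 podocyte markers none was called (1, Clic5, fell after scaling) and the median was 0.0. That median was -0.47 without FAN1KO replicate 1, -0.38 without wild-type replicate 1 and 0.34 without FAN1KO replicate 3. Of 10 fibroblast markers none was called. Their median of -0.36 was -0.89 without wild-type replicate 1, 0.25 without wild-type replicate 2, -0.58 without FAN1KO replicate 1 and -0.13 without FAN1KO replicate 3. Pdgfra, which marks these cells, was at 1.83, 12.9 and 7.8 TPM in wild-type and 7.83, 4.19 and 1.77 TPM in FAN1KO kidneys (log2 fold change -0.48 ± 0.7, adjusted p = 0.648). Endothelial markers varied between libraries: 12 of 13 had a fold change below 0, the median was -0.89, and none was called. That median was -1.45 without wild-type replicate 1, -0.37 without wild-type replicate 2 and -0.39 without FAN1KO replicate 3. Pecam1 (CD31) was at 8.99, 40.9 and 24.9 TPM in wild-type and 19.3, 12.3 and 5.31 TPM in FAN1KO kidneys (log2 fold change -0.89 ± 0.7, adjusted p = 0.375). Here too the libraries high in Y-linked genes stood apart, with a difference from the other wild-type libraries of -1.52 in mean log2(TPM + 1). The difference between genotypes was -0.45 in the pair high in these genes and -0.96 in the others. With the 4 libraries left out 10 of 13 endothelial markers were lower, and with the Y-linked mean as a covariate 9 were.

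Of 13 macrophage markers, 3 rose, a share near the 19.6% of all genes, and the median was 1.1. Higher without overlap were 7, against 35.7% of all genes, and 2 were called after scaling, against 9.27%. Cd14, the endotoxin co-receptor, was at 6.18, 28.4 and 24.1 TPM in wild-type and 87.1, 36.1 and 58.4 TPM in FAN1KO kidneys (log2 fold change 1.73 ± 0.53, adjusted p = 0.0386). Cx3cr1 (1.57), the fractalkine receptor, and Cd68 (1.56) rose as well. Adgre1 (F4/80), which defines the cell type, was at 0.747, 2.23 and 1.42 TPM in wild-type and 4.86, 1.52 and 1.25 TPM in FAN1KO kidneys and was not called (log2 fold change 0.43 ± 0.44, adjusted p = 0.503), and the complement C1q genes had fold changes of 1.85, 1.39 and 1.51 that did not pass the test. The median was 0.55 without FAN1KO replicate 1. The count of rises was 0 without FAN1KO replicate 1 or wild-type replicate 1 and 2 without FAN1KO replicate 2 or wild-type replicate 3. It was 5 without the 4 Y-high libraries, against 28.9% of all genes, and 9 with the Y-linked covariate, against 40.3%. In a fit of only the 6 cisplatin libraries no macrophage marker was called. Of 8 T and natural killer cell markers, Cd8a alone rose, at 0.274, 0.666 and 1.47 TPM in wild-type and 1.92, 1.89 and 2.81 TPM in FAN1KO kidneys (log2 fold change 0.87 ± 0.28, adjusted p = 0.0428, and 0.71 with adjusted p = 0.0826 after scaling), while Cd3e was at 0.453, 1.61 and 1.9 TPM in wild-type and 1.63, 2.85 and 0.22 TPM in FAN1KO kidneys. Neither the 2 neutrophil markers that passed the filter nor the 3 of B and plasma cells were called, with S100a8, a neutrophil calcium-binding protein, at 0.754, 1.62 and 0.854 TPM in wild-type and 1.46, 3.18 and 4.26 TPM in FAN1KO kidneys. All 4 erythroid genes fell, and their summed TPM was 2318 to 6571 in wild-type and 6.56 to 73.3 in FAN1KO kidneys. Of the 3 fat markers none was called (Fabp4 fell after scaling), with a summed TPM of 104 to 227 and 34.6 to 62.4. The part of blood, fat and immune cells in the results was not tested.

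**Figure D3:**
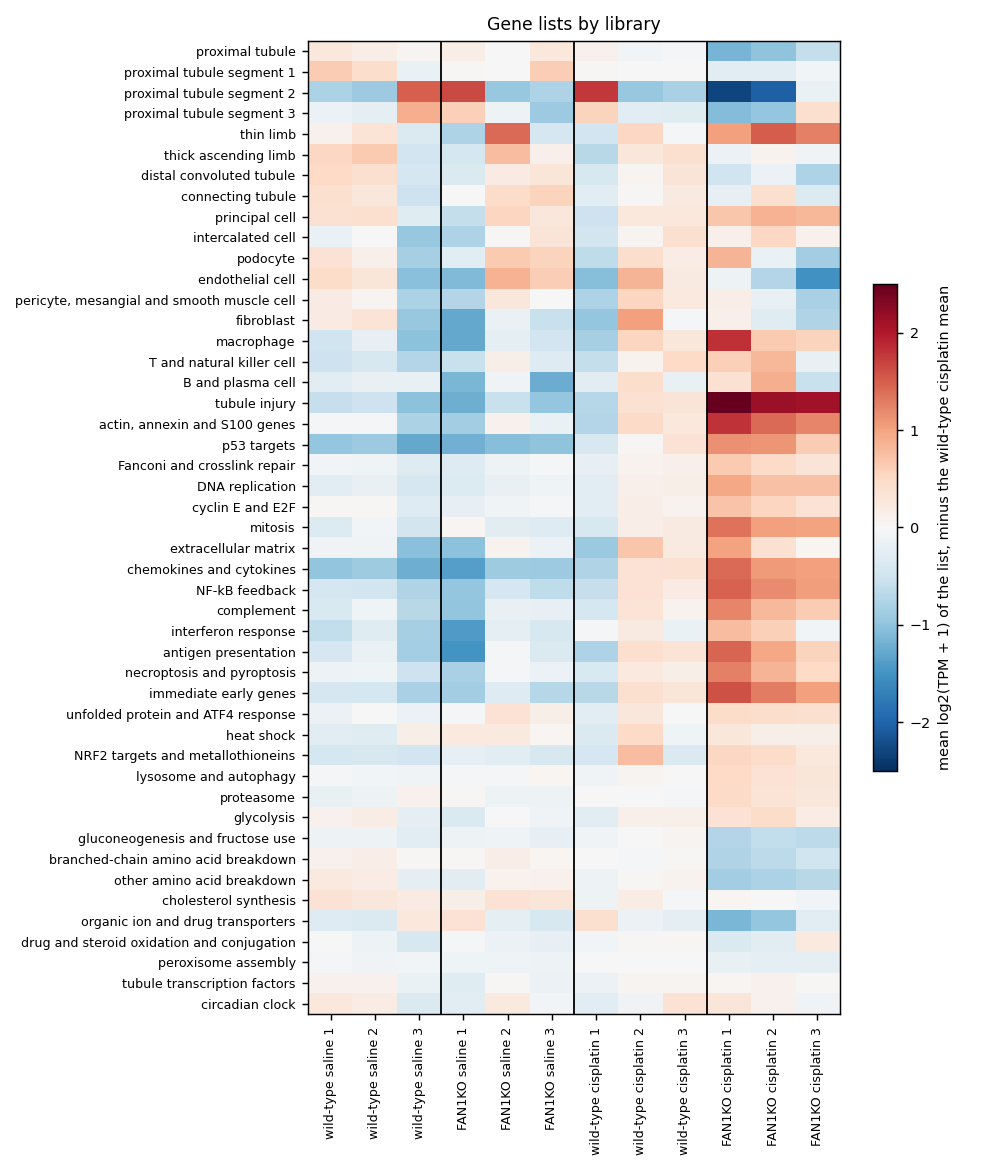
Each row is a gene list and each column 1 of the 12 libraries, with black lines between the 4 groups. The colour is the mean log2(TPM + 1) of the list's genes minus the mean of the 3 wild-type cisplatin libraries (red higher, blue lower, limits at -2.5 and 2.5). The FAN1KO cisplatin columns are blue for proximal tubule and breakdown of amino acids and red for tubule injury, mitosis, p53 targets and NF-kB feedback, and the segment 2 row follows the library high in Y-linked genes in every group.

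Transporters for organic ions and drugs, most of them on the proximal tubule, were lower in part. Of 15, 5 fell and 1 rose, with a median of -0.72, and 3 fell and none rose after scaling. Falls numbered 1 without FAN1KO replicate 1, 3 without FAN1KO replicate 2 or wild-type replicate 1 or 2, 10 without the 4 Y-high libraries and 10 with the Y-linked covariate. In addition to Slc22a6, Slc22a7 and Slc22a8, the falls included that of Slc17a3 (-1.67), a urate and phosphate transporter. Slc22a2, the organic cation transporter OCT2 that carries cisplatin, was at 332, 166 and 177 TPM in wild-type and 61.8, 71.9 and 175 TPM in FAN1KO kidneys and was not called (log2 fold change -1.2 ± 0.46, adjusted p = 0.0811). Its efflux partner Slc47a1 (MATE1) was at 599, 391 and 432 TPM in wild-type and 258, 249 and 403 TPM in FAN1KO kidneys, also without a call (log2 fold change -0.65 ± 0.27, adjusted p = 0.0983). Abcc2, the apical export pump MRP2, rose, at 34.7, 50.4 and 27.3 TPM in wild-type and 78, 68 and 54.7 TPM in FAN1KO kidneys (log2 fold change 0.85 ± 0.21, adjusted p = 0.0171, and 0.57 with adjusted p = 0.0581 after scaling).

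Of 16 tubule transcription factors, 3 fell and 2 rose, against 4.37% of all genes lower and 19.6% higher. Hnf4a and Cux1 (-0.49) were lower, and Pax2 rose, at 13.9, 19.3 and 16.7 TPM in wild-type and 34.2, 33.2 and 29.1 TPM in FAN1KO kidneys (log2 fold change 0.92 ± 0.16, adjusted p = 0.00401), together with its relative Pax8 (0.84), both genes of the developing nephron. Of this list 1 fell without FAN1KO replicate 1, 2 fell without FAN1KO replicate 2 or wild-type replicate 1 or 2, and without the 4 Y-high libraries 5 rose. The remaining 11 of 16 tubule transcription factors were not called, of which Lhx1 and Esrrg fell after scaling.

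Genes of glucose synthesis and fructose use were lower. Of 11 genes, 7 fell and 1 rose, with a median of -0.86 (8 and 1 after scaling). The falls numbered 4 without FAN1KO replicate 1. G6pc (14377), glucose 6-phosphatase of the last step, was at 452, 332 and 434 TPM in wild-type and 92.1, 151 and 166 TPM in FAN1KO kidneys. It fell without overlap (log2 fold change -1.6 ± 0.26, adjusted p = 0.00271). Fbp1 (-1.29), the fructose bisphosphatase, Khk (-0.95), ketohexokinase, Pcx (-0.94), pyruvate carboxylase, and Slc37a4 (-0.83), the glucose 6-phosphate transporter, fell as well. The cytosolic carboxykinase Pck1 was at 1054, 1718 and 2434 TPM in wild-type and 1114, 1159 and 532 TPM in FAN1KO kidneys and was not called (log2 fold change -0.89 ± 0.4, adjusted p = 0.132), although it passed after scaling (log2 fold change -1.18, adjusted p = 0.0314), and its mitochondrial counterpart Pck2 rose, at 7.63, 13.6 and 14.7 TPM in wild-type and 28.9, 24.2 and 22.3 TPM in FAN1KO kidneys (log2 fold change 1.05 ± 0.26, adjusted p = 0.0182). Of 17 glycolytic genes, 3 rose, a share below the 19.6% of all genes, of which 1 did after scaling. Their number was 2 without FAN1KO replicate 1 or 2 or wild-type replicate 1. With the Y-linked covariate 8 rose, against 40.3% of all genes. Hexokinase 2 (Hk2) was at 0.408, 0.6 and 0.729 TPM in wild-type and 3.62, 2.26 and 1.97 TPM in FAN1KO kidneys (log2 fold change 1.18), Gpi1 rose by 0.41 and Aldoa by 0.43, while Ldha (0.04) and Pkm (0.47) were not called.

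Genes of amino acid breakdown were lower. For leucine, isoleucine and valine, 15 of 19 genes fell, 17 were lower without overlap (8.6% of all genes), none rose and the median was -0.55 (12 after scaling). These enzymes work in mitochondria. Acat1, acetyl-CoA acetyltransferase, was at 511, 255 and 274 TPM in wild-type and 123, 133 and 187 TPM in FAN1KO kidneys (log2 fold change -1.18 ± 0.34, adjusted p = 0.0328, and -1.46 with adjusted p = 0.0595 after scaling). Mmut, the B12-dependent methylmalonyl-CoA mutase at the end of the valine and isoleucine path, was at 106, 95.1 and 96.1 TPM in wild-type and 42.8, 46.1 and 58.4 TPM in FAN1KO kidneys (log2 fold change -1.01 ± 0.12, adjusted p = 0.000676). The falls covered the dehydrogenase complex (Bckdha -0.5, Bckdhb -0.98, Dbt -0.86 and Dld -0.5) and the later steps (Hibadh -1.09, Aldh6a1 -1.08, Mccc2 -1.0 and Pcca -0.89). Bcat2 (-0.01), the mitochondrial transaminase of the first step, was not called, and its cytosolic relative Bcat1, which is not in the list, was at 7.84, 15.1 and 13.3 TPM in wild-type and 2.42, 2.46 and 6.85 TPM in FAN1KO kidneys (log2 fold change -1.49 ± 0.45, adjusted p = 0.0373) and was lower under saline too (fold change -2.74, adjusted p = 0.0215). Fewer fell without single libraries, 7 without FAN1KO replicate 1 or 2 and 10 without wild-type replicate 1 or 3.

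For the other amino acids, 13 of 25 genes fell and 1 rose (median -0.83, 16 and none after scaling, and 20 with the Y-linked covariate). Kmo (98256), kynurenine 3-monooxygenase of tryptophan breakdown, was at 144, 133 and 144 TPM in wild-type and 33.6, 37.4 and 49.3 TPM in FAN1KO kidneys. The 6 values lay in narrow ranges far from each other (log2 fold change -1.8 ± 0.14, adjusted p = 7.34e-05), and Haao (-0.89) of the same path fell as well. Ido2, a dioxygenase at the entry of the path, was at 11.1, 8.21 and 11.1 TPM in wild-type and 0.365, 0.414 and 0.644 TPM in FAN1KO kidneys (log2 fold change -2.91 ± 0.21, adjusted p = 4.83e-05). For tyrosine and phenylalanine, Fah (-0.74), Hgd (-0.98) and Gstz1 (-0.78) fell. Hpd, the hydroxyphenylpyruvate dioxygenase of that path, was at 168, 482 and 897 TPM in wild-type and 38.2, 34.9 and 53.1 TPM in FAN1KO kidneys (log2 fold change -3.3 ± 0.84, adjusted p = 0.0189) and was among the 10 largest falls of genes with a symbol, with wild-type values that spread widely and were lowest in the library high in Y-linked genes. The glycine cleavage genes Amt (-1.04) and Gcsh (-0.82), the choline path enzyme Dmgdh (-1.74), and Aldh4a1 (-0.96), Agxt2 (-0.97) and Ddo (-0.9) were lower. Agmat, which hydrolyses agmatine, was at 13.6, 17 and 18.8 TPM in wild-type and 5.99, 4.76 and 6.36 TPM in FAN1KO kidneys (log2 fold change -1.38 ± 0.17, adjusted p = 0.000837) and was also lower under saline (fold change -1.3, adjusted p = 0.00654). Cth, which makes cysteine, was at 197, 208 and 245 TPM in wild-type and 109, 115 and 125 TPM in FAN1KO kidneys (log2 fold change -0.89 ± 0.19, adjusted p = 0.00944). The serine path moved both ways: Phgdh, its first enzyme, was at 4.41, 8.6 and 4.88 TPM in wild-type and 34.6, 33.9 and 32.7 TPM in FAN1KO kidneys and rose (log2 fold change 2.37 ± 0.29, adjusted p = 0.000704), while Shmt2, the mitochondrial serine hydroxymethyltransferase, was at 276, 179 and 183 TPM in wild-type and 82.6, 89.2 and 108 TPM in FAN1KO kidneys and fell (log2 fold change -1.16 ± 0.22, adjusted p = 0.00486).

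**Figure D4:**
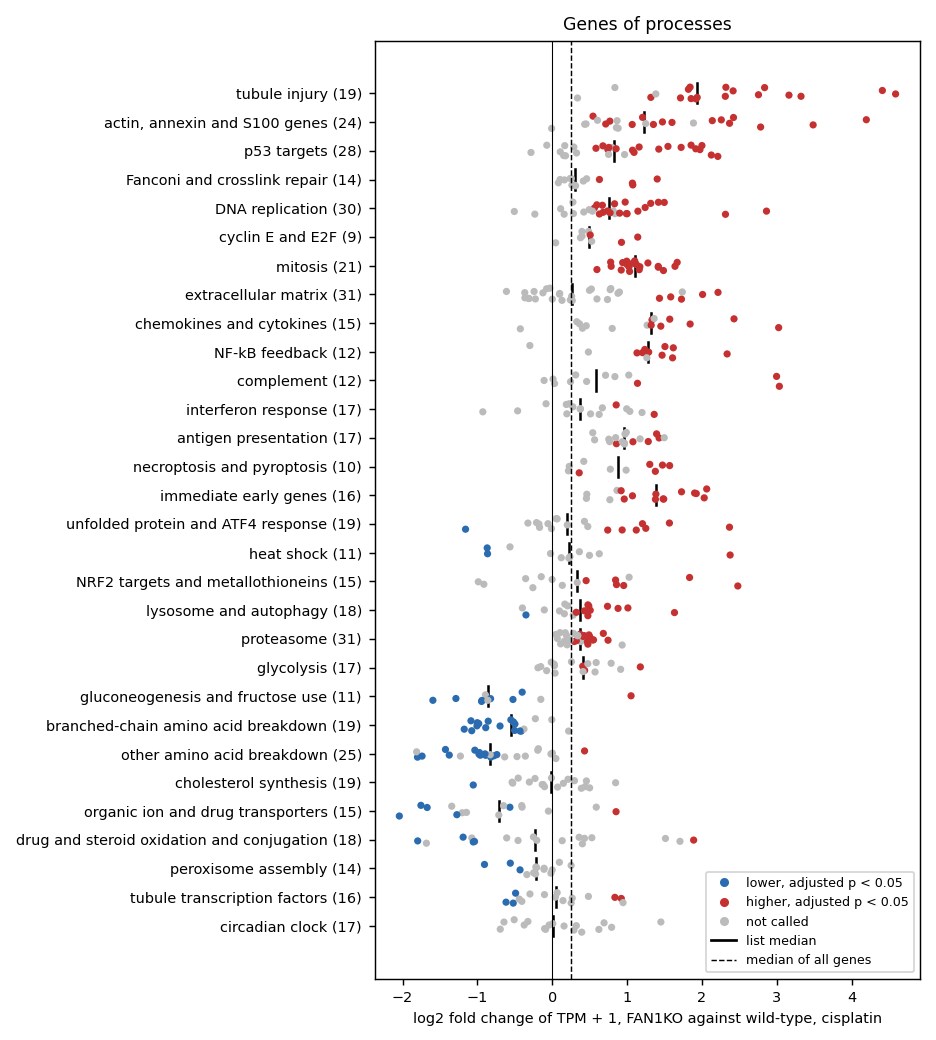
Each point is 1 gene of a process, placed by its log2 fold change of TPM + 1 between FAN1KO and wild-type kidneys given cisplatin (horizontal axis), in rows by process with the number of genes tested. Blue (lower) and red (higher) points passed an adjusted p of 0.05, grey points did not, and the black bar is the row's median. The tubule injury, mitosis and immediate early rows lie right of the dashed median of all genes, the breakdown of amino acids and gluconeogenesis rows lie left of 0, and the proteasome row lies close to the dashed line.

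Drug and steroid metabolism was lower in part, 4 of 18 genes having fallen and 1 risen, the same numbers as after scaling. Falls numbered 1 without FAN1KO replicate 1, 2 without FAN1KO replicate 2 or wild-type replicate 1, 10 without the 4 Y-high libraries and 7 with the Y-linked covariate. Ugt3a2, a UDP-glycosyltransferase with near relatives that could share reads, was at 939, 518 and 524 TPM in wild-type and 123, 149 and 326 TPM in FAN1KO kidneys (log2 fold change -1.8 ± 0.4, adjusted p = 0.0103). Cyp2j5 (-1.19), Fmo1 (-1.04) and Fmo2 (-1.06) also fell. Cyp27b1, the 1-alpha-hydroxylase that activates vitamin D, was at 3.88, 5.58 and 13 TPM in wild-type and 22.3, 53.9 and 16.9 TPM in FAN1KO kidneys and rose (log2 fold change 1.89 ± 0.51, adjusted p = 0.0241), although 1 FAN1KO kidney was close to the highest wild-type one. Hsd3b2, a hydroxysteroid dehydrogenase with near-identical relatives, was at 322, 306 and 252 TPM in wild-type and 7.44, 8.93 and 27 TPM in FAN1KO kidneys (log2 fold change -4.46 ± 0.51, adjusted p = 0.000481), with a fold change of -2.56 under saline (adjusted p = 0.0518). Catalase (Cat), the peroxisomal enzyme that breaks down hydrogen peroxide, was at 617, 585 and 559 TPM in wild-type and 273, 305 and 366 TPM in FAN1KO kidneys (log2 fold change -0.91 ± 0.12, adjusted p = 0.000977), and the peroxin Pex11a (-0.56) fell, with 11 of 14 peroxisome genes not called (6 of the list fell after scaling, and 1 without FAN1KO replicate 1 or 2, 2 without wild-type replicate 1 or 2 and 5 with the Y-linked covariate). In cholesterol synthesis Cyp51 alone fell, at 48.6, 103 and 90.2 TPM in wild-type and 32.1, 40.5 and 36.8 TPM in FAN1KO kidneys (log2 fold change -1.06 ± 0.25, adjusted p = 0.0138), and the other 18 genes were not called (3 fell after scaling, and without the 4 Y-high libraries 3 fell and 4 rose).

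Genes of the injured tubule were higher. Of 19, 16 rose and none fell, with a median of 1.93 (15 rose after scaling and 10 without FAN1KO replicate 1). Krt20 (66809), a keratin absent from healthy tubules, was at 0.72, 4.98 and 7.64 TPM in wild-type and 181, 119 and 55.5 TPM in FAN1KO kidneys (log2 fold change 4.58). All 3 FAN1KO kidneys were above all wild-type kidneys, which themselves differed. The keratins Krt19 (3.32), Krt18 (2.75), Krt8 (1.85) and Krt7 (1.32), osteopontin (Spp1, 2.84), clusterin (Clu, 2.32) and ceruloplasmin (Cp, 2.31) rose. So did Sox9 (1.92) and Sox4 (1.93), transcription factors of tubule repair, Cd44 (1.71) and Vcam1 (1.84), which marks proximal tubule cells that fail to repair, the last not after scaling (log2 fold change 1.56, adjusted p = 0.0575). Vim, which encodes vimentin, was at 41.1 ± 17.8 TPM in wild-type and 71.3 ± 25.2 TPM in FAN1KO kidneys (SD, n = 3) and was not called (log2 fold change 0.84 ± 0.46, adjusted p = 0.205). Under saline none of these genes was called, and the median was -0.08.

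Genes of the actin cortex and of calcium-dependent membrane binding were higher as well. Of 24 actin, annexin and S100 genes, 15 rose, with a median of 1.23 (14 after scaling and 8 without FAN1KO replicate 1). S100a6 (20200), calcyclin, was at 17.7, 70.1 and 52.4 TPM in wild-type and 969.9, 688 and 649 TPM in FAN1KO kidneys (log2 fold change 4.19 ± 0.48, adjusted p = 0.000481). Annexins Anxa3 (3.48) and Anxa2 (2.42), S100a11 (2.78), the galectins Lgals3 (2.37) and Lgals1 (2.26), Tmsb10 (2.14) and Actb (0.77) were higher. Outside the lists, 3 small proline-rich proteins, which squamous epithelia use in their outer layer, were among the 10 largest rises of genes with a symbol. Sprr1a was at 2.51, 9.69 and 6.84 TPM in wild-type and 183, 77.9 and 61.9 TPM in FAN1KO kidneys (log2 fold change 3.87 ± 0.53, adjusted p = 0.00129), Sprr2f at 0.194, 0 and 0.157 TPM in wild-type and 35.6, 7.17 and 11.3 TPM in FAN1KO kidneys (log2 fold change 3.79) and Sprr2g at 0.772, 0.278 and 0.0735 TPM in wild-type and 23.6, 10.6 and 12.3 TPM in FAN1KO kidneys (log2 fold change 3.54). Both Sprr2 genes were under 1 TPM in the other 3 groups, so their rise is a description, and members of the family are close enough in sequence to share reads. Tubb2b, a beta-tubulin with near-identical relatives, was at 4.17, 10.8 and 11.5 TPM in wild-type and 55.2, 29.3 and 32.3 TPM in FAN1KO kidneys (log2 fold change 2.07 ± 0.39, adjusted p = 0.0054).

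Immediate early transcription factors rose in 12 of 16 cases, the same number as after scaling, with a median of 1.38. Klf6 was at 11.9, 31.9 and 28.8 TPM in wild-type and 126, 81.4 and 87.1 TPM in FAN1KO kidneys (log2 fold change 2.06 ± 0.39, adjusted p = 0.00505). The AP-1 genes Junb (1.9), Atf3 (1.73), Jun (1.49), Fos (1.48) and Jund (0.96), together with Egr1 (1.92), Maff (2.03), Klf4 (1.38) and Myc (1.38), were higher, while Nr4a1 (0.45), Egr2 (0.46) and Dusp1 (0.77) were not called. The letters of the AP-1 motif, TGANTCA, were looked for on both strands of the 250 bases before the start of genes, for which RefSeq (GRCm38.p6) gave 27025 promoters, and stood in 6.87% of them. Promoters printed here and below were chosen after their genes' values were seen, capitals mark the match, and a match is a description of letters, not a bound site. The Sprr2f promoter held 1 match, at chr3:92364937-92365186 on the plus strand, and is printed because this gene was near 0 in wild-type kidneys.
Sprr2f: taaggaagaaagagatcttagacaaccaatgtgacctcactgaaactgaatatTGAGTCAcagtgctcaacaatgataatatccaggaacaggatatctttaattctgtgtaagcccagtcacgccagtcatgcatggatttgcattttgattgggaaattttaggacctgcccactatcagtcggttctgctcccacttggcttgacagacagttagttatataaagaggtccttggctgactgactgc

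Targets of p53 were higher, 17 of 28 having risen with a median of 0.83 (13 higher and 1 lower after scaling, the latter being Dcxr, and 11 without FAN1KO replicate 1 or wild-type replicate 1). Psrc1, a spindle protein, was at 3.37, 7.1 and 16.2 TPM in wild-type and 43.6, 49.2 and 26 TPM in FAN1KO kidneys (log2 fold change 2.21 ± 0.44, adjusted p = 0.00641). The cell cycle inhibitor Cdkn1a (p21) rose by 1.92, the apoptosis genes Pmaip1 by 2.12, Bbc3 by 2.0 and Bax by 1.09, and Gdf15, Phlda3 and Eda2r by 1.97, 1.72 and 1.54. Mdm2, which degrades p53, was at 40.3, 49.1 and 58.7 TPM in wild-type and 97, 92.5 and 62 TPM in FAN1KO kidneys (log2 fold change 0.74 ± 0.21, adjusted p = 0.0305, and 0.46 with adjusted p = 0.0622 after scaling). Other targets were not called, among them the nucleotide excision repair genes Xpc (0.29) and Ddb2 (0.32), the ribonucleotide reductase subunit Rrm2b (0.11) and Ccng1 (0.18). Of 14 genes of the Fanconi path, which unhooks crosslinks, 4 rose, against 19.6% of all genes, and 4 after scaling, against 9.27%. The 4 on TPM as deposited included Fanca (1.07), Ube2t (1.07) and Slx4 (0.63). Of these 4, 2 passed the filter only with the FAN1KO cisplatin libraries, so the count is a description. With a stricter filter 1 of 6 rose, and with the Y-linked covariate 7 of 14 did, against 40.3% of all genes.

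Genes of DNA replication were higher. Of 30 replication genes, 19 rose (median 0.75, 13 after scaling and 10 without FAN1KO replicate 1 and 12 without wild-type replicate 1). Mcm6 (17219), a subunit of the replicative helicase, was at 0.612, 1.83 and 2.05 TPM in wild-type and 17.3, 13.8 and 18.7 TPM in FAN1KO kidneys (log2 fold change 2.86 ± 0.25, adjusted p = 0.000136). Of the genes of this list it alone was called under saline as well, at 0.754, 1.56 and 0.784 TPM in wild-type and 6.4, 6.77 and 8.05 TPM in FAN1KO kidneys (fold change 2.01, adjusted p = 0.00501). Under cisplatin Mcm2 (1.14), Mcm5 (1.31) and Mcm7 (0.99) rose and Mcm3 (0.81) and Mcm4 (0.84) were not called. Gins2 (2.31), Lig1 (1.49), Rrm2 (1.42) and Pold1 (1.24) rose. Of 26 mitosis genes listed, 21 passed the filter and 21 rose (16 after scaling and 14 without FAN1KO replicate 1 or wild-type replicate 1). Their levels were low and 9 of the 21 passed the filter only with the FAN1KO cisplatin libraries, so this count is a description. Ccnb2, cyclin B2, was at 0.71, 2.09 and 2.83 TPM in wild-type and 10.5, 5.9 and 7.14 TPM in FAN1KO kidneys (log2 fold change 1.67 ± 0.35, adjusted p = 0.00814), and Mki67 was at 0.874 ± 0.396 TPM in wild-type and 2.8 ± 0.632 TPM in FAN1KO kidneys (SD, n = 3). Cdk1 (1.48), Cdc20 (1.64), Top2a (1.42) and Aurkb (1.28) rose alike. In the cyclin E and E2F list 3 of 9 rose, against 19.6% of all genes, and 1 after scaling, against 9.27%. The number was 1 without FAN1KO replicate 1 or wild-type replicate 1 and 2 without FAN1KO replicate 2 or wild-type replicate 2 or 3. With the Y-linked covariate 6 rose, against 40.3% of all genes. Among the 3 was Ccne1, cyclin E1, at 0.317, 0.857 and 0.807 TPM in wild-type and 3.05, 2.92 and 1.98 TPM in FAN1KO kidneys (log2 fold change 1.14). It reached 1 TPM in no other group and so had to differ. The motif TTTGGCGC of E2F factors was found in 0.437% of the 27025 promoters of 250 bases, on either strand. The Mcm6 promoter, at chr1:128359706-128359955 on the minus strand, held 2 matches and is shown because its gene had the largest rise of the list.
Mcm6: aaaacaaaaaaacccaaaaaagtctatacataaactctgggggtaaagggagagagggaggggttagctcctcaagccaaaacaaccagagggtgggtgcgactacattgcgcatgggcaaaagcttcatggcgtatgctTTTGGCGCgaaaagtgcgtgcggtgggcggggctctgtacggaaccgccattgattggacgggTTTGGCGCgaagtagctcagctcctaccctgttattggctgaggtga

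Genes of inflammatory signalling were higher. Of 12 genes that NF-kB induces or that feed back on it, 9 rose (median 1.27, 8 after scaling and 4 without FAN1KO replicate 1, 5 without wild-type replicate 1 and 6 without FAN1KO replicate 2). Tnfrsf12a, the receptor of the cytokine TWEAK, was at 55.8, 88.1 and 70.8 TPM in wild-type and 490.1, 319 and 296 TPM in FAN1KO kidneys (log2 fold change 2.33 ± 0.29, adjusted p = 0.000845). Relb (1.61), Nfkbiz (1.62), Nfkb2 (1.5), Birc3 (1.47), Nfkbia (1.29) and Tnfaip3 (1.2) rose. Of 15 chemokines and cytokines, 7 rose, 3 of them genes that passed the filter only with the FAN1KO cisplatin libraries, and 7 did after scaling. Cxcl1, which draws neutrophils, was at 1.73, 13.2 and 10.9 TPM in wild-type and 97.8, 56.5 and 42.8 TPM in FAN1KO kidneys (log2 fold change 3.02 ± 0.63, adjusted p = 0.00797). Csf1 (2.43), the macrophage growth factor, Icam1 (1.84), Lif (1.57), Ccl20 (1.45), Cxcl2 (1.33) and Cxcl16 (1.32) rose, while Ccl2 (1.27), Ccl5 (-0.43), Tnf (0.4) and Il1b (0.33) were not called. The letters GGGANNTTCC of the NF-kB motif stood in 1.17% of the 27025 promoters of 250 bases, on either strand. The Cxcl1 promoter, at chr5:90890995-90891244 on the plus strand, held 2 matches that overlap each other, 1 per strand, and is printed for its gene's rise.
Cxcl1: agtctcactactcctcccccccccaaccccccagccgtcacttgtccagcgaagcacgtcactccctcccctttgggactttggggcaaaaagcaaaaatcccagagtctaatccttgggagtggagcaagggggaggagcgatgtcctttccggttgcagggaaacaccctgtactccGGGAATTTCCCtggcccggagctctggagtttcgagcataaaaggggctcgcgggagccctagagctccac

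Of 12 complement genes 3 rose, a share near the 19.6% of all genes, and 2 after scaling, against 9.27%. Complement rises numbered 2 without FAN1KO replicate 1 or 2 or wild-type replicate 1, 2 or 3. They numbered 5 without the 4 Y-high libraries, against 28.9% of all genes, and 6 with the Y-linked covariate, against 40.3%. C3 (12266), the central component, was at 22.7, 76.3 and 66 TPM in wild-type and 518, 299 and 431 TPM in FAN1KO kidneys (log2 fold change 3.03 ± 0.52, adjusted p = 0.00346). Cfi (2.99), which inactivates its fragment C3b, and Cd59a (1.14), which blocks the terminal complex, rose too, while Cfb (-0.11), of the alternative pathway, was not called. In class I antigen presentation, H2-K1 was at 301, 455 and 465 TPM in wild-type and 1429, 999 and 868 TPM in FAN1KO kidneys (log2 fold change 1.43 ± 0.29, adjusted p = 0.00691). H2-D1 (1.28), Tapbp (1.08), Nlrc5 (0.86) and Psmb10 (1.39) were also higher. Of 17 genes of presentation 5 rose, against 19.6% of all genes, and 4 after scaling, against 9.27%. Rises in presentation numbered 3 without FAN1KO replicate 1 or 2 or wild-type replicate 1. They numbered 11 without the 4 Y-high libraries, against 28.9% of all genes, and 15 with the Y-linked covariate, against 40.3%. Reads of H2-K1 and H2-D1 may be shared between related genes. The class II genes H2-Aa (0.77), H2-Ab1 (0.85) and Cd74 (0.75) were not called. Of 17 interferon-stimulated genes 2 rose, a share below the 19.6% of all genes, and after scaling none rose and Xaf1 fell. Without the 4 Y-high libraries 10 rose, against 28.9% of all genes, and with the Y-linked covariate 6 did, against 40.3%. The difference in mean log2(TPM + 1) of this list was -0.0276 between the Y-high cisplatin libraries and 0.665 between the others. Ifit3 was at 15.3, 20.8 and 13.7 TPM in wild-type and 51.7, 56.3 and 28.2 TPM in FAN1KO kidneys (log2 fold change 1.36 ± 0.45, adjusted p = 0.0489). Of 10 genes of inflammatory cell death 5 rose, against 19.6% of all genes, and 4 after scaling, against 9.27%. Their number was 1 without FAN1KO replicate 1, 2 without wild-type replicate 1 and 3 without FAN1KO replicate 2. With the Y-linked covariate 8 rose, against 40.3% of all genes. The 5 included Casp4 (1.57), the necroptosis genes Ripk3 (1.47) and Mlkl (1.3), and Pycard (1.38). Casp4, the caspase that senses endotoxin, was at 1.05, 2.94 and 2.37 TPM in wild-type and 11.5, 8.31 and 5.07 TPM in FAN1KO kidneys (log2 fold change 1.57 ± 0.35, adjusted p = 0.0113).

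Extracellular matrix genes rose in 5 of 31 cases on TPM as deposited, against 19.6% of all genes, and in 5 after scaling, against 9.27%. The median of 0.26 ran from -0.26 without wild-type replicate 1 to 0.7 without wild-type replicate 2. Rises numbered 2 without FAN1KO replicate 1, 3 without wild-type replicate 1 and 8 without wild-type replicate 2. Without the 4 Y-high libraries 9 rose, against 28.9% of all genes, and 2 fell. With the Y-linked covariate 12 rose, against 40.3% of all genes. Those that rose included genes of proteolysis and its control, with Timp1 at 0.831, 7.89 and 8.28 TPM in wild-type and 34.4, 19.4 and 19.8 TPM in FAN1KO kidneys (log2 fold change 2.21 ± 0.55, adjusted p = 0.0173), Mmp14 (2.01) and Mmp7 (1.72, a gene that had to differ), and the basement membrane collagen Col18a1 (1.58). The fibrillar and microfibril genes Col1a1 (0.4), Col3a1 (-0.06), Fn1 (0.24) and Fbn1 (-0.08) were not called.

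Stress responses were split. In the unfolded protein and ATF4 list, 7 of 19 rose, against 19.6% of all genes, and Shmt2 fell. After scaling 6 rose, against 9.27% of all genes. The rises numbered 3 without FAN1KO replicate 1 and 4 without FAN1KO replicate 2 or wild-type replicate 1. The 7 risers were Atf4 (0.74), Ddit3 (1.25), Trib3 (1.56), Chac1 (1.12), Asns (0.93), Phgdh and Mthfd2 (1.2). The chaperones of the endoplasmic reticulum Hspa5 (-0.01), Hsp90b1 (-0.21), Pdia4 (0.06) and Calr (0.05) were not called. Among heat shock genes, Hspb1 (HSP27) was at 17.5, 39.1 and 27.7 TPM in wild-type and 179, 133 and 122 TPM in FAN1KO kidneys and rose (log2 fold change 2.37 ± 0.37, adjusted p = 0.00226), and Hsph1 (-0.87) and the mitochondrial chaperonin Hspd1 (-0.87) fell, with the same counts after scaling. In the list of NRF2 targets and metallothioneins, 6 of 15 rose, against 19.6% of all genes, and 3 after scaling, against 9.27%. Their number was 2 without FAN1KO replicate 1, 3 without FAN1KO replicate 2 or wild-type replicate 1 and 4 without FAN1KO replicate 3 or wild-type replicate 3. Without the 4 Y-high libraries 4 rose, against 28.9% of all genes. The median was 0.33 (0.18 without wild-type replicate 1 and 0.64 without wild-type replicate 2). Mt2, a metallothionein that binds zinc and platinum, was at 69.5, 231 and 206 TPM in wild-type and 1244, 1094 and 427 TPM in FAN1KO kidneys (log2 fold change 2.48 ± 0.58, adjusted p = 0.0135), and Mt1 rose by 1.83. The pentose phosphate genes G6pdx (0.84), Pgd (0.86) and Taldo1 (0.45) and Nqo1 (0.95) rose, while the glutathione genes Gclc (0.13) and Gclm (-0.26) and Txnrd1 (0.0) were not called. Hmox1, heme oxygenase 1, was at 51.5, 3214 and 23.9 TPM in wild-type and 82.3, 77.3 and 81.5 TPM in FAN1KO kidneys, so that wild-type replicate 2 was far above the other 5 kidneys (log2 fold change -0.99 ± 1.4, adjusted p = 0.638).

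Genes of protein turnover and synthesis rose in part on TPM as deposited but mostly not after scaling. Of 31 proteasome subunits 15 rose, against 19.6% of all genes, with a median of 0.37, and none was called after scaling. Proteasome rises numbered 5 without FAN1KO replicate 1 and 7 without FAN1KO replicate 2 or wild-type replicate 1. Psma7 was at 235, 266 and 278 TPM in wild-type and 466, 447 and 393 TPM in FAN1KO kidneys (log2 fold change 0.74 ± 0.1, adjusted p = 0.0014, and 0.45 with adjusted p = 0.0674 after scaling). Lysosome and autophagy genes rose in 10 of 18 cases, against 19.6% of all genes. After scaling 3 rose, against 9.27% of all genes, namely Ctsd, Ctsl (1.01) and Npc2 (0.74). Fewer rose without most single libraries, 4 without FAN1KO replicate 1 or wild-type replicate 1 and 5 without FAN1KO replicate 2 or wild-type replicate 2 or 3. Ctsd, cathepsin D, was at 548, 617 and 641 TPM in wild-type and 2345, 1868 and 1476 TPM in FAN1KO kidneys (log2 fold change 1.63 ± 0.16, adjusted p = 0.000235), and Gabarapl1, an ATG8 protein of autophagosomes, fell, at 453, 546 and 530.4 TPM in wild-type and 422, 378 and 394 TPM in FAN1KO kidneys (log2 fold change -0.35 ± 0.11, adjusted p = 0.04).

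Reactome sets were also ranked by the share of members called, as a description with no test of the sets. Apart from the respiratory chain, tricarboxylic acid cycle and fatty acid sets, the largest share called lower was in branched-chain amino acid catabolism, with 13 of 17 (76.5%, and 11 after scaling). It was followed by pyruvate metabolism, with 7 of 20 (35%, with 1 other higher, and 7 lower after scaling), where Pdk2, a kinase that inhibits pyruvate dehydrogenase, was at 237, 232 and 299 TPM in wild-type and 145, 178 and 155 TPM in FAN1KO kidneys (log2 fold change -0.68 ± 0.17, adjusted p = 0.0198). Polyamines (4 of 17 lower and 4 higher, and 4 and 2 after scaling), porphyrins (4 of 17, none higher, and 4 after scaling) and sulfur amino acids (5 of 22 and 2 higher, and 4 and 1 after scaling) came next. Then came steroid hormones and vitamin D (5 of 24 and 4 higher, and 5 and 2 after scaling), retinoic acid signalling (8 of 43 and 1 higher, and 12 and none after scaling) and water-soluble vitamins and cofactors (13 of 71 and 1 higher, and 18 and 1 after scaling). Rdh1, a retinol dehydrogenase of low abundance that shares exon sequence with a neighbour, was at 1.2, 5.52 and 6.03 TPM in wild-type and 0.983, 0.596 and 0.209 TPM in FAN1KO kidneys (log2 fold change -1.57 ± 0.48, adjusted p = 0.0383). The largest shares called higher were in tubulin folding (12 of 16, 75.0%, and 7 after scaling), DNA strand elongation (20 of 32, 62.5%, and 11), formation of the 43S complex (38 of 61, 62.3%, and 10) and elongation arrest and recovery (19 of 32, 59.4%, and 5). The recycling of the adhesion protein L1 (13 of 22, 59.1%, and 4), the pool of free 40S ribosomal subunits (76 of 129, 58.9%, and 23), TRAF6-mediated NF-kB activation (9 of 16, 56.2%, and 5) and chaperonin-mediated folding (15 of 27, 55.6%, and 8) followed. Gtf2f1, a subunit of the general transcription factor TFIIF and the top gene of elongation arrest, was at 38.8, 65.7 and 60.4 TPM in wild-type and 125, 105 and 90.2 TPM in FAN1KO kidneys (log2 fold change 0.97 ± 0.2, adjusted p = 0.00814). Rps6ka6, a ribosomal S6 kinase and the top gene of the L1 set, was at 1.56, 2.95 and 2.63 TPM in wild-type and 5.83, 5.23 and 5.26 TPM in FAN1KO kidneys (log2 fold change 0.95 ± 0.26, adjusted p = 0.0239). Rpl3, a protein of the large ribosomal subunit, was at 21.2, 16.3 and 15.5 TPM in wild-type and 129, 132 and 99.95 TPM in FAN1KO kidneys (log2 fold change 2.7 ± 0.28, adjusted p = 0.000337). Rps3a1, of the small subunit, was at 28.8, 25.3 and 25.4 TPM in wild-type and 111, 132 and 94.3 TPM in FAN1KO kidneys (log2 fold change 2.04 ± 0.27, adjusted p = 0.00114). Ribosomal genes have many pseudogenes that could share their reads.

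The 10 largest falls of genes with a symbol in the reference table, globin genes apart, also held Klk1b22, Alas2, which belongs to the erythroid list, Rps15a-ps8, Slc22a22 and Dnase1. Alas2, the heme synthesis enzyme of erythroid cells and the top gene of the porphyrin set, was at 17.5, 28.6 and 39.5 TPM in wild-type and 1.01, 0.315 and 0.98 TPM in FAN1KO kidneys (log2 fold change -4.01 ± 0.58, adjusted p = 0.00152). Dnase1, the secreted nuclease made by tubules, was at 2074, 935 and 1413 TPM in wild-type and 216, 221 and 113 TPM in FAN1KO kidneys (log2 fold change -2.99 ± 0.31, adjusted p = 0.000315). Slc22a22, a prostaglandin transporter of the kidney, was at 108, 60.3 and 63.3 TPM in wild-type and 5.59, 4.01 and 23.9 TPM in FAN1KO kidneys (log2 fold change -3.01 ± 0.53, adjusted p = 0.00389). Klk1b22, 1 of a large kallikrein family, was at 51.4, 91.5 and 132 TPM in wild-type and 2.75, 4.57 and 2.32 TPM in FAN1KO kidneys (log2 fold change -4.4 ± 0.49, adjusted p = 0.000446), and was lower under saline too, at 89.8, 175 and 38.6 TPM in wild-type and 1.71, 2.88 and 2.65 TPM in FAN1KO kidneys. The 10 largest rises of genes with a symbol also held Ugt2b38, Lcn2, Trim12a and Spaca7. Spaca7, a gene known from sperm, was at 0.117, 0.179 and 0.252 TPM in wild-type and 21.7, 17.4 and 21.4 TPM in FAN1KO kidneys (log2 fold change 4.16). It was under 1 TPM in every library of the other groups, passed the filter only through these kidneys and so had to differ. Trim12a was at 0.213, 0.178 and 0.0314 TPM in wild-type and 26.3, 22.9 and 13.8 TPM in FAN1KO kidneys (log2 fold change 4.23 ± 0.31, adjusted p = 5.39e-05) and was higher under saline too, at 0.184, 0.333 and 0.223 TPM in wild-type and 3.82, 10.3 and 8.57 TPM in FAN1KO kidneys.

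The genotype difference under cisplatin was tested against that under saline by the interaction term, which was called for 935 genes (6.24%). By this term 27 of the 102 genes named by rule passed, and 83 of the 102 were called under cisplatin. Most of the 102 were chosen for a large called change under cisplatin, which is itself a part of the interaction. Both numbers therefore follow in part from the choice and cannot be set against the share of all genes. Of the 27, Spaca7, Sprr2f, Sprr2g, Ccne1, Krt20 and Hk2 passed the filter only with the FAN1KO cisplatin libraries, so their interaction is a description. Among the others Kmo (-1.8 under cisplatin and -0.21 under saline) and S100a6 (4.19 and -0.45) had the smallest adjusted p of this term (0.00492 and 0.00815). For Klk1b22 (-4.4 and -4.67), Rps15a-ps8 (-3.35 and -3.5), Bcat1 (-1.49 and -2.74), Agmat (-1.38 and -1.3), Ugt2b38 (5.2 and 6.95), Trim12a (4.23 and 2.69) and Mcm6 (2.86 and 2.01) the difference was called under both treatments and the interaction was not.

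**Figure D5:**
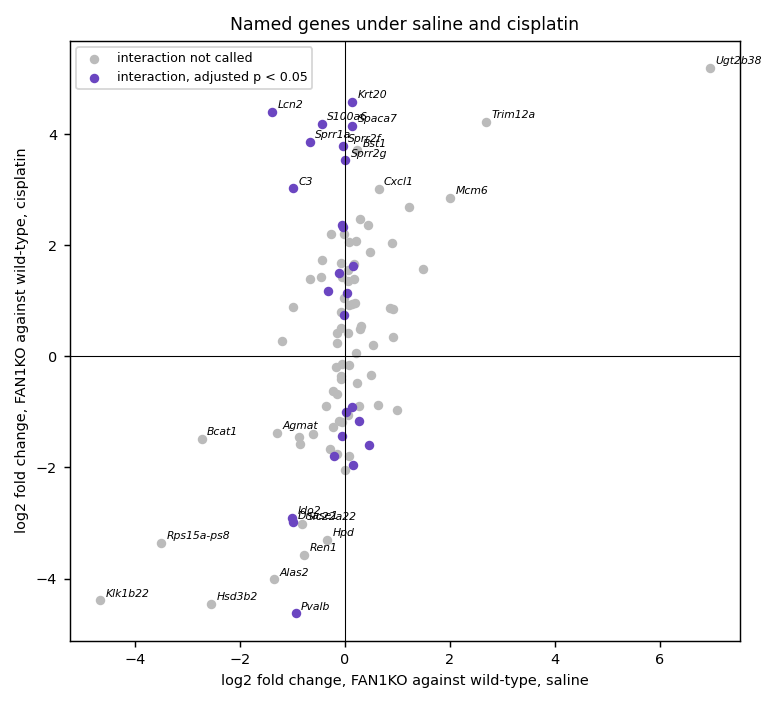
Each point is 1 of the named genes, the 2 alpha-globin genes left out, by its log2 fold change of TPM + 1 in FAN1KO against wild-type kidneys under saline (horizontal axis) and under cisplatin (vertical axis). Purple points had an interaction with an adjusted p under 0.05. Most points lie near 0 on the saline axis, whereas Ugt2b38, Trim12a and Mcm6 at the upper right and Klk1b22, Rps15a-ps8 and Bcat1 at the lower left differed between genotypes under both treatments.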

How the data were processed

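RNA of 12 whole kidneys was sequenced. The authors deposited TPM, which per the file sum to 1000000 in each library, for 27179 genes by NCBI Gene number. The build mm10 and the tool limma come from the submitters' processing notes. The aligner, annotation and use of strand are not given in the sources used here. From the steps between low values, 1 read on 1 kilobase of transcript corresponds to 0.0200 to 0.0479 TPM depending on the library, which limits the precision of low genes. Values were analysed as log2(TPM + 1).

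The 14972 genes that reached 1 TPM in 3 or more libraries were tested with limma 3.58.1 in R 4.3.3, by 4 group means over all 12 libraries, empirical Bayes moderation with a mean-variance trend and Benjamini-Hochberg adjustment over all genes. The 54 gene lists (776 genes, 775 matched) and the members were chosen with earlier results of these data known, so lists are described by counts and medians beside all genes. Genes were named by rule: the first 2 tested markers of each segment and the first of each other kidney cell type, the largest called fall and rise without overlap in each list, the 10 largest such falls and rises over genes with a symbol in the reference table, globin genes apart, and the top gene of 8 Reactome sets (mouse sets from an R package) in each direction among sets of 15 to 150 genes. Some genes named by this rule are not reported here. Other list members are given as examples. Names and promoters came from RefSeq GRCm38.p6, which named all but 1904 genes.

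Alternatives were a replicate block, a pseudocount of 0.1, no filter or a stricter one, omission of mitochondrially encoded genes, median-ratio scaling, only the 6 cisplatin libraries, no trend, a Y-linked covariate and each library left out. Leaving out the 4 libraries high in Y-linked genes was added after seeing the data. The fit was also run on simulated data, and the outcome is not reported here. Exons of 25 of 101 named genes overlap another gene in GENCODE M21 (among them Slc34a1, Egf, Dnase1, Hsd3b2, Cldn19, Bst1, Ctsd and Spaca7), and reads there could belong to either. No column of values was left out (0). Figures were drawn with matplotlib 3.10.9 in Python 3.11.15.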

Additional observations from a re-analysis of the deposited data

Results flagged for a closer look

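For 27 of the genes named, the genotype difference under cisplatin differed from that under saline by the interaction term of limma at an adjusted p under 0.05. Most named genes were chosen for a large change under cisplatin, so this number and these values are a description. Values are the cisplatin minus the saline log2 fold change.

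Among tubule markers and growth factors the values were below 0. The difference was -1.38 for Lrp2 (adjusted p = 0.0390), -1.44 for Slc34a1 (0.0338), -2.11 for Egf (0.0395) and -3.68 for Pvalb (0.0402). In metabolism it was -2.06 for G6pc (0.0156), -1.60 for Kmo (0.00492), -1.89 for Ido2 (0.0110), -1.03 for Mmut (0.0134) and -1.04 for Cat (0.0124), and it was -1.99 for the nuclease Dnase1 (0.0293). The alpha-globin genes Hba-a1 (-5.89, 0.0206) and Hba-a2 (-6.23, 0.0196) had the same direction.

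In injury and the epithelial envelope the difference was 5.80 for Lcn2 (0.0111), 4.64 for S100a6 (0.00815) and 4.54 for Sprr1a (0.0131). In inflammation it was 4.03 for C3 (0.0160), 2.37 for Tnfrsf12a (0.0150) and 1.61 for Nfkb2 (0.0349). It was 2.42 for Phgdh (0.0134), 1.47 for Ctsd (0.0109) and 0.766 for Psma7 (0.0196). It was 4.45 for Krt20 and 1.49 for Hk2, which passed the filter only with the FAN1KO cisplatin libraries. It was 1.11 for Ccne1, 3.84 for Sprr2f, 3.53 for Sprr2g and 4.02 for Spaca7, which were under 1 TPM in every library of the other 3 groups, passed the filter only through FAN1KO cisplatin kidneys and so had to differ. Their values are a description.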

How the results depend on the processing

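Of the 83 named genes called under cisplatin, none reversed direction in the 22 alternatives, 53 stayed called in each and 64 in each but the omission of single libraries. All 83 had cisplatin values without overlap between the genotypes, which for most was a condition of being named. Omitting libraries could therefore not reverse their direction, and these numbers are a description. Counts over all genes moved as follows. Genes called lower and higher numbered 1288 and 6035 with the Y-linked covariate, 1155 and 1388 with median-ratio scaling, and 1162 and 4328 without the 4 libraries high in Y-linked genes, an alternative chosen after seeing the data. Genes called higher numbered 1829 with mitochondrially encoded genes left out and 1721 in the 6 cisplatin libraries alone. The saline count of 115 became 421 (Y-linked covariate), 72 (no filter), 27 (the 6 saline libraries alone) and 295 (without the 4 libraries). The 935 interaction calls became 4734 (Y-linked covariate), 558 (scaling), 597 (mitochondrially encoded genes left out) and 2438 (without the 4 libraries). Leaving out 1 library at a time, lower genes ran from 370 (without FAN1KO cisplatin replicate 1) to 694 and higher genes from 1169 (the same library) to 3144, with 402 lower and 1536 higher without FAN1KO cisplatin replicate 2 and 1442 higher without wild-type cisplatin replicate 1. Saline calls ran from 43 to 129, and were 45 and 43 without wild-type saline replicates 1 and 2, 67 without replicate 3, 75 and 63 without FAN1KO saline replicates 1 and 2 and 73 without FAN1KO cisplatin replicate 2. Interaction calls ran from 269 to 1197, and were 269 and 307 without FAN1KO cisplatin replicates 1 and 2, 436 and 533 without wild-type cisplatin replicates 1 and 2, 407 and 405 without FAN1KO saline replicates 1 and 3 and 277 and 351 without wild-type saline replicates 1 and 2. The cause of these shifts was not tested.

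Deviations of same-numbered cisplatin libraries from their group means had correlations of -0.47, 0.13 and -0.39. With 3 libraries per group these values cannot show whether libraries were paired, and the main fit used no pairing. The fit with a replicate block called 580 lower genes, of which 561 were also called without it, and 2376 higher genes, of which 2335 were. Its saline and interaction calls numbered 61 and 424.

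Among genes, the values that changed sign were all of uncalled genes. The median relative to all genes changed sign in at least 1 setting for 12 of 49 lists, whose main values lay within 0.249 of 0. Over all settings it ran from -0.412 to 0.397 for extracellular matrix, -0.24 to 0.349 for connecting tubule, -0.648 to 0.0149 for podocyte, -0.366 to 0.144 for pericyte and related cells, -0.197 to 0.0797 for distal convoluted tubule and -0.062 to 0.219 for intercalated cell markers. It ran from -0.405 to 0.26 for B and plasma cell, -0.00805 to 0.556 for T and natural killer cell, -0.238 to 0.0947 for heat shock and -0.183 to 0.283 for unfolded protein genes, and the other 2 lists are below. Other ranges are over the omission of single cisplatin libraries. Relative to all genes the NRF2 list was at -0.0571 without the 4 libraries and ran from -0.00903 (without wild-type replicate 3) to 0.334, and the circadian list ran from -0.271 to 0.04 (without wild-type replicate 3). Slc2a2 ran from -0.285 to 0.0193 and Slc7a13 from -3.48 to 0.979, both highest without wild-type replicate 1. Cyp7b1 ran from -1.13 (without FAN1KO replicate 3) to 1.76, with -0.249 and -0.673 without wild-type replicates 2 and 3. Slc12a1 ran from -0.659 to 0.137, with 0.134 without wild-type replicate 2, Umod from -0.588 to 0.0227 and S100g from -0.00319 to 0.62. Pdgfrb ran from -0.979 to 0.0179, with 0.00302 without wild-type replicate 2, Pdgfra from -1.14 to 0.0114, Adgre1 from -0.00368 to 0.687 and Cd79a from -0.168 to 0.583. Slc26a4 was at -0.0717 after scaling. Cd3e was at -0.0862 after scaling, -0.00796 with mitochondrially encoded genes left out and -0.0693 with a pseudocount of 0.1, and ran from -0.312 (without FAN1KO replicate 2) to 0.518.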

Other observations

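Some genes differed between the genotypes under both treatments. Of the 64 lower and 51 higher genes under saline, 71 were also called under cisplatin in the same direction, 30 lower and 41 higher, and 3 in the opposite direction. Fan1 lies on chromosome 7 (64345385 to 64374128 in GRCm38.p6). Of the 71 genes, 8 lay on chromosome 7 (11.3%, against 7.41% of the genes tested), 8 on chromosome 5 (11.3%, against 5.86%), 11 on chromosome 11 (15.5%, against 7.92%) and 6 on chromosome 13 (8.45%, against 3.79%). No test of these shares was made. Those on chromosome 7 included Lrrc28, at 67513410 to 67645336, with fold changes of 0.94 under cisplatin and 0.98 under saline, Klk1b22, at 44112673 to 44116922, and Trim12a, at 104299893 to 104315558. Nucb2 (1.91 and 1.24) and Pik3c2a (0.97 and 0.86) lay near each other on that chromosome, at 116504352 to 116540588 and 116337265 to 116443465. Other members had roles in translation, such as Rplp0 (1.80 and 1.55), or in mitosis, such as Pttg1, securin (2.24 and 2.65). These genes were singled out after their values were seen.

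None of the 17 circadian clock genes was called under cisplatin (Hlf fell after scaling), with a median of 0.01, and Bhlhe41 (1.45) and Per1 (0.79) were at its upper end. Under cisplatin the summed TPM of the adrenal cortex list was 2.62 to 3.7 in wild-type and 2.01 to 3.08 in FAN1KO kidneys (up to 182 in the wild-type saline kidneys), and that of the urothelium list 1.7 to 2.93 and 3.24 to 5.21. Upk1a rose (0.72), a call that was lost after scaling. The skeletal muscle actin Acta1 rose as well (0.96), but was under 1 TPM in every library of the other groups and so had to differ.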
